A study of Mus musculus with 6 samples.

Results

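The S100 genes encode small calcium-binding proteins, and 7 of them, S100a1, S100a4, S100a6, S100a8, S100a9, S100a11 and S100a13, are described here across 2 populations sorted from mouse bone marrow. Members were found by gene symbol and Entrez identifier in the platform's probe annotation. Each of the 7 genes had 1 probe, so the family took 7 of the 45281 probes, and 7 of the 19057 genes named on the array. S100a14, an older synonym of S100a11, is now the symbol of another gene, and its probes were not taken. Each sample's RNA was hybridised to its own Illumina bead array. Monocyte-like precursors of granulocytes (MLPG, n = 3) were the cells labelled Ly6C high, and granulocytic progenitors (GP, n = 3) were those labelled Ly6C low. All 6 samples came from bone marrow. The labels name no strain, age, full gating, tumour or treatment of the mice, and do not tie replicates to separate animals, so the p-values reflect array-to-array spread that may be technical.

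S100 proteins bind calcium through paired EF-hand loops, mostly as dimers, and the bound form exposes a surface that grips target proteins. In the marrow, S100A8 and S100A9 form the heterodimer calprotectin, which fills the cytosol of maturing neutrophils and of monocytes and, once released, binds metal ions and signals through TLR4 and RAGE. S100A6, S100A4 and S100A11 are known mostly as cytosolic partners of annexins, myosin and other cytoskeletal proteins. S100A1 is best known from muscle, and S100A13 from the unconventional release of FGF1.

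S100a6 was the 1 member that passed the test (limma, adjusted p under 0.05), and it was 2.32-fold lower in MLPG than in GP. The values of S100a8, S100a9 and S100a11 lay near the top of the scale in both populations, and their log2 differences, -0.05, -0.10 and -0.11, did not pass the test. S100a4 was dim and was 1.32-fold higher in MLPG on a difference that did not pass the test. S100a13 and S100a1 differed by -0.19 and -0.07 on the log2 scale, and their groups overlapped. Of the 7 members, 1 was called, lower in MLPG (limma, adjusted p under 0.05), in a comparison in which 0.512% of the 15440 features tested were called, 0.369% lower in MLPG and 0.142% higher. With the replicate number as a block the same 1 member was called, beside 4.08% of features, 2.59% lower and 1.49% higher. The median difference of the 7 members was -0.10, against 0.007 over all features, and 6 of the 7 lay below 0, against 48.3% of all features. That median was -0.179 without MLPG replicate 1 and -0.053 without MLPG replicate 3.

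**Figure D1:**
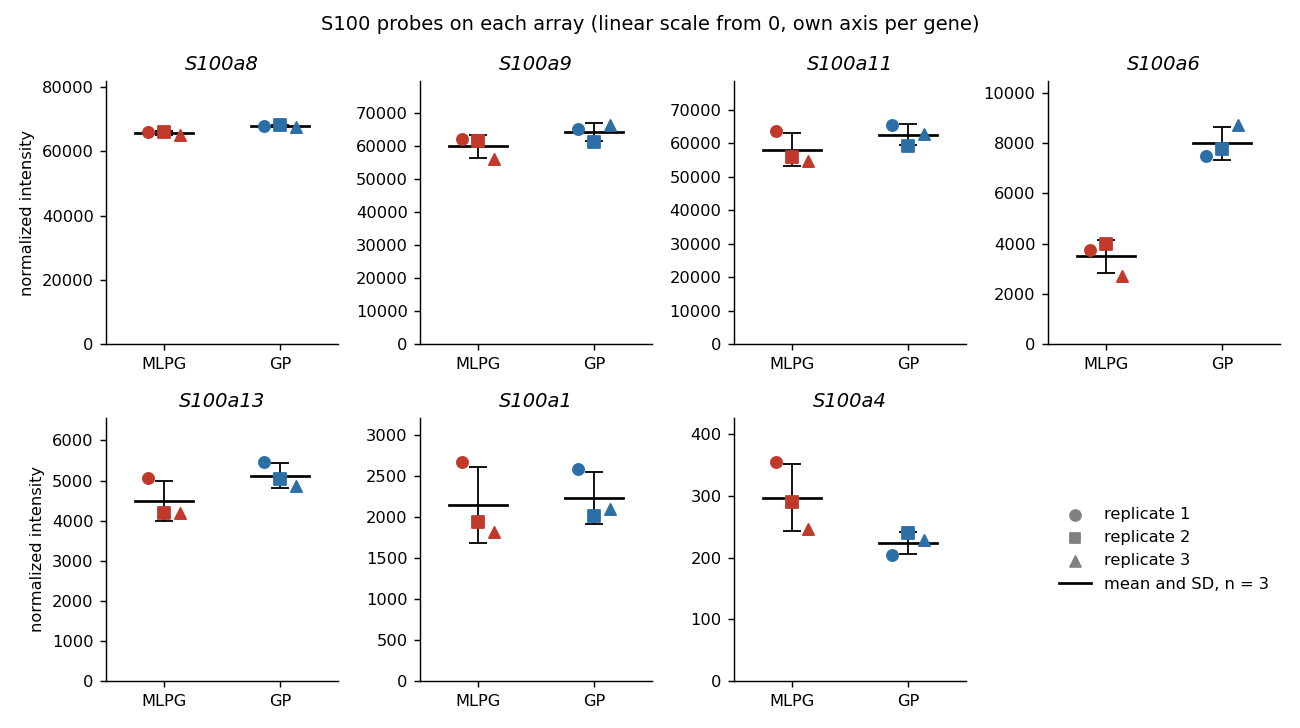
Normalized intensity of the 7 S100 probes on each array, on a linear scale from 0 with its own axis for each gene; MLPG is red, GP is blue, symbols give the replicate number, and the line and bars give mean and SD of 3 arrays. The MLPG and GP arrays are apart for S100a6, S100a8 and S100a4, and overlap for the other 4 genes.

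A few facts of the whole series bear on these values. All 6 columns of the deposited table share 1 distribution, so a value is in effect a place in the order of probes on its array. Values run up to 71674, and 272 probes on each array lie within 2-fold of that maximum, where a large step in place is a small step in intensity: the probes at places 10 and 100 differ by 0.20 on the log2 scale, and those at places 100 and 1000 by 2.13. Primary granule genes such as Elane and Mpo were near the top on all arrays. All 8 monocyte markers listed were higher in MLPG on average. Of these 8, 1 was called, Klf4, beside 0.512% of all features, and 6 under the replicate block, beside 4.08%. In bulk RNA, fewer cells of a type and less RNA per cell cannot be told apart. Of the B cell and the T or NK cell lists 0 genes were called in limma, with or without the block, and 0 had an unadjusted p under 0.05. Cd3e and Cd3g were below the filter, with their highest values, 243.6 and 272.7, in GP replicate 3, while Nkg7 averaged 43089 in MLPG and 35905 in GP.

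S100a6, also called calcyclin, is a partner of annexins and of the ubiquitin ligase adaptor CACYBP, and is known for its induction in growing cells. Its intensity was 3748, 3999 and 2724 in MLPG replicates 1, 2 and 3, against 7488, 7761 and 8724 in GP replicates 1, 2 and 3. The highest MLPG array was below the lowest GP array, and MLPG replicate 3 was the lowest of the 6 while GP replicate 3 was the highest. The means were 3490 ± 675 in MLPG and 7991 ± 649 in GP (SD, n = 3 each). The log2 difference was -1.21 (SE 0.15, 95% interval -1.56 to -0.86), with an adjusted p of 0.0234 in limma, or 0.00805 once replicate number was blocked. Its p-value was at place 28 among the 15440 features, and 58 features had a lower difference. Within replicate numbers the difference lay between -1.68 and -0.96, and that of number 3 was the lowest. By place on the array, S100a6 was at 3817, 3624 and 4861 in MLPG and at 2027, 1946 and 1722 in GP, well below the compressed top of the scale.

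The call of S100a6 depended on single arrays, while its size did not. The adjusted p in limma was 0.0938 without GP replicate 3. Leaving out MLPG replicate 1 gave 0.107, leaving out MLPG replicate 2 gave 0.0584, and leaving out MLPG replicate 3 gave 0.0651. Calls fell over the whole series in these fits. Features called numbered 79 with all arrays, and 25 without GP replicate 3. Without MLPG replicates 1, 2 and 3 they numbered 2, 3 and 2. Over all 15 alternatives the difference lay between -1.32 and -1.04. Markers of several cell types also differed between the groups, some in the direction of S100a6 and those of monocytes in the opposite direction. The summed intensity of 11 mature neutrophil markers was 309272 to 331156 in MLPG and 367483 to 411257 in GP. Of the 10 above the filter, 2 were called, beside 0.512% of all features. Under the replicate block 4 were called, beside 4.08%, and all these calls were lower in MLPG. The summed intensity of 6 eosinophil markers was 3820 to 6746 in MLPG and 48553 to 91485 in GP. Most of it was Prg2, at 2888, 5726 and 3473 in MLPG, against 44668, 71154 and 67717 in GP. Of the 4 above the filter, 3 were called, Prg2, Prg3 and Epx, all lower in MLPG, beside 0.512% of all features. The 8 monocyte markers went the other way and summed to 46225 to 52059 in MLPG and 10850 to 30752 in GP. Most of that sum was F13a1, at 34740, 31550 and 32194 in MLPG, against 6990, 20713 and 14038 in GP. Siglecf and Ccr3 of the eosinophil list and Mmp8 of the neutrophil list were below the filter. Ear1 and Ear2 of the eosinophil list and Ly6g of the neutrophil list were not matched to a probe. The lists of 3 other cell types were summed lower in every MLPG array than in any GP array, and 0 of their genes were called in limma. An unadjusted p under 0.05 was found for 2, 2 and 1 of them, beside 14.7% of all features. Their calls under the replicate block stand beside 4.08% of all features, 2.59% lower in MLPG. The 4 erythroid markers summed to 798 to 2582 in MLPG and 2822 to 6632 in GP, with 2 called lower under the replicate block, Hba-a1 and Alas2. The 4 basophil or mast cell markers summed to 1152 to 1241 in MLPG and 1472 to 1980 in GP, with 2 called lower under the block, Cpa3 and Fcer1a. The 4 platelet or megakaryocyte markers summed to 718 to 874 in MLPG and 1027 to 1454 in GP, with 1 called lower under the block, Itga2b, and with Pf4 and Ppbp below the filter. The part of these markers in the S100a6 difference was not tested.

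S100a8 encodes the smaller calprotectin subunit. It had intensities of 66031, 65906 and 64993 in MLPG, against 67818, 68260 and 67562 in GP. All 3 MLPG arrays were below all 3 GP arrays, and all 6 were close to the top of the scale. Replicates were close: the coefficient of variation was 0.863% in MLPG and 0.521% in GP, and only 0.0194% of features had a smaller residual SD. Other genes near the compressed top of the scale also had small residual SDs. The share of features with a smaller one was 0.0648% for Elane, 0.648% for Prtn3 and 1.8% for Mpo. The log2 difference was -0.05 (SE 0.08, 95% interval -0.23 to 0.13, limma adjusted p = 0.834). The limma SE is larger than the arrays' own spread because the test draws each feature's variance towards that of the others. In place on the array the same difference reads as 65, 66 and 74 in MLPG, against 42, 35 and 47 in GP. Groups also did not overlap for S100a6 and S100a4, making 3 of 7 members, 2 lower and 1 higher in MLPG, beside 20.4% of all features, 9.66% lower and 10.7% higher.

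S100a9 encodes the other calprotectin subunit, and had intensities of 62222, 61671 and 55966 in MLPG, against 65061, 61380 and 66442 in GP. GP replicate 2 lay within the MLPG range, and MLPG replicate 3 was the lowest of the 6. The log2 difference was -0.10 (SE 0.09, 95% interval -0.31 to 0.10, limma adjusted p = 0.654). Its places were 95, 98 and 133 in MLPG and 73, 99 and 60 in GP. Within replicate numbers the S100a9 differences were -0.06, 0.01 and -0.25, and those of S100a8 were -0.04, -0.05 and -0.06. Both subunits therefore stayed among the 133 brightest probes on every array of both populations.

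**Figure D2:**
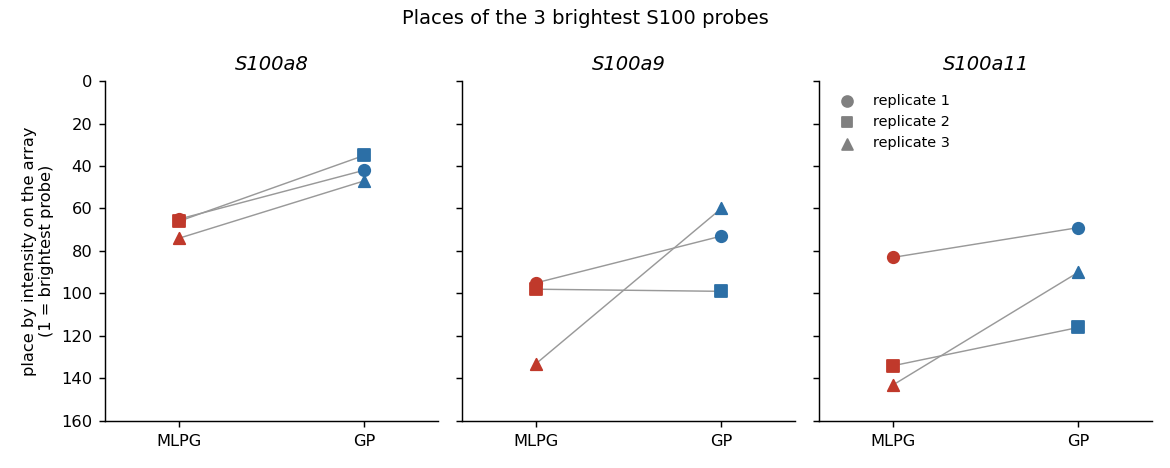
Place of S100a8, S100a9 and S100a11 in the order of all probes on each array (y axis, 1 is the brightest and is at the top), with lines joining MLPG (left, red) and GP (right, blue) arrays of the same replicate number. S100a8 lies at places 65 to 74 in MLPG and 35 to 47 in GP, while S100a9 and S100a11 overlap between the groups.

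S100a11, an annexin A1 partner also known as calgizzarin, was the other member near the top of the scale. Its intensity was 63691, 55790 and 54573 in MLPG, against 65467, 59208 and 62826 in GP. MLPG replicate 1 was above GP replicates 2 and 3, so the groups overlapped. The log2 difference was -0.11 (SE 0.10, 95% interval -0.33 to 0.11, limma adjusted p = 0.659). In folds, the far ends of the fit's intervals are 1.26 lower in MLPG for S100a11 and 1.24 lower for S100a9, on a scale that is compressed at this brightness.

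S100a4, also called metastasin or FSP1, binds non-muscle myosin and is known for its role in cell motility. Its probe was dim, with 356.0, 290.5 and 246.7 in MLPG, against 204.5, 239.8 and 228.0 in GP, where the median of all probes on an array was 179.3. The groups did not overlap, with MLPG replicate 3 just above GP replicate 2. The means were 297.7 ± 55.0 in MLPG and 224.1 ± 18.0 in GP (SD, n = 3 each). The log2 difference was 0.40 (SE 0.14, 95% interval 0.07 to 0.72, limma adjusted p = 0.261). At an unadjusted p under 0.05, 2 of 7 members passed, S100a6 and S100a4, beside 14.7% of all features, 7.42% lower and 7.23% higher in MLPG. The S100a4 differences within replicate numbers were 0.80, 0.28 and 0.11, and without MLPG replicate 1 the difference was 0.26. Subtracting the lowest value of each array less 16 before the log gave 0.55. Such a subtraction enlarges log2 differences of dim probes by arithmetic, and the background in the deposited values was not measured.

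S100a13 and S100a1 had mid-range values. S100a13 was at 5074, 4196 and 4196 in MLPG, against 5473, 5037 and 4853 in GP. MLPG replicate 1 lay within the GP range and the other 2 below it. The log2 difference was -0.19 (SE 0.11, 95% interval -0.44 to 0.05, limma adjusted p = 0.457), and it was below 0 within each replicate number, at -0.11, -0.26 and -0.21. All 3 replicate numbers were lower in MLPG for 20.8% of all features. S100a1 was at 2678, 1943 and 1819 in MLPG, against 2593, 2013 and 2096 in GP. Replicate 1 was the highest array of both groups. The log2 difference of S100a1 was -0.07 (SE 0.17, 95% interval -0.45 to 0.31, limma adjusted p = 0.89), and its sign changed under 3 of 15 alternatives.

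**Figure D3:**
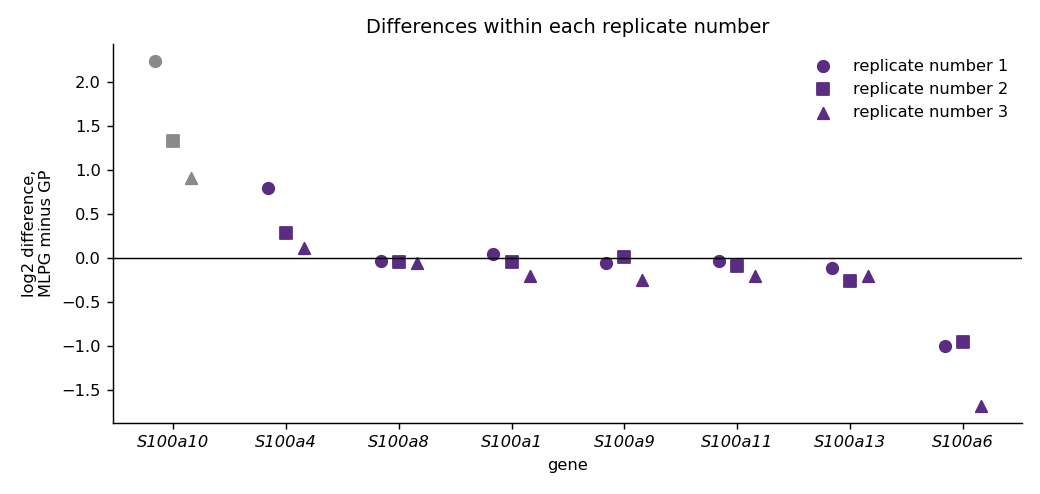
Log2 difference (y axis) between the MLPG and the GP array of the same replicate number, for the 7 genes described (purple) and S100a10 (grey); symbols give the replicate number. S100a6 lies between -1.68 and -0.96, S100a4 and S100a10 are above 0 in each, and the other 5 genes lie between -0.26 and 0.05.

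The S100a genes lie on mouse chromosome 3, and 12 of them, in the order S100a1, S100a13, S100a14, S100a16, S100a3, S100a2, S100a4, S100a5, S100a6, S100a7a, S100a8 and S100a9, follow each other with 0 other protein-coding genes between them in the RefSeq annotation of GRCm38.p6. S100a7l2 follows S100a9 after 1 other protein-coding gene, and S100a11 and S100a10, neighbours of each other, are farther along, with 54 other protein-coding genes between S100a7l2 and S100a11. Differences did not follow this order. S100a6, with -1.21, lay between S100a5, which was below the filter (log2 difference -0.05), and S100a7a, also below it (-0.16). S100a4, with 0.40, was the neighbour on the other side of S100a5.

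**Figure D4:**
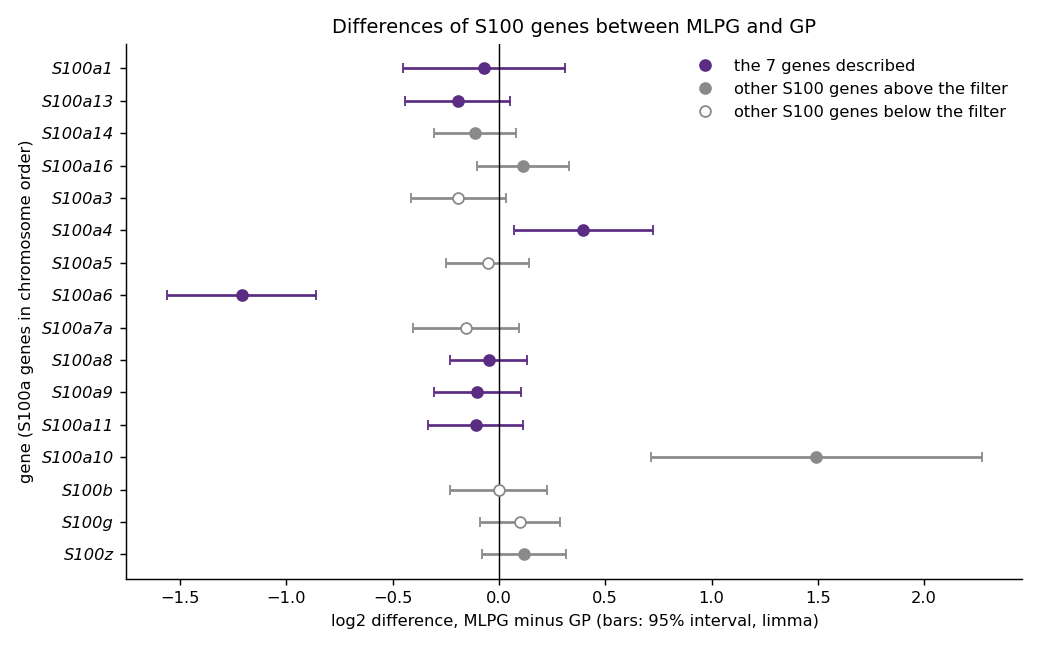
Log2 difference, MLPG minus GP (x axis), with 95% intervals from limma for the 7 members and the 9 other S100 genes on the array, S100a genes from top to bottom in their order on chromosome 3; the 7 genes described are purple, other S100 genes grey, and open points lie below the filter on dim probes. S100a6 stands alone on the left at -1.21 and S100a10 on the right at 1.49.

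The promoters of S100a6, S100a4, S100a8 and S100a9 are shown because they stand in the same cluster while S100a6 fell in MLPG, S100a4 had a difference of 0.40 that was not called and the calprotectin pair lay near the top of the scale in both populations. Each is the 250 bases before the RefSeq start in GRCm38.p6, 5′ to 3′ on the gene's strand: S100a6 at chr3:90612644-90612893 (+), S100a4 at chr3:90603520-90603769 (+), S100a8 at chr3:90668821-90669070 (+) and S100a9 at chr3:90695722-90695971 (-). Capitals mark matches, on either strand, to 5 motifs. The core promoter box was searched as TATAAA. The site type of C/EBP factors was searched as TTGCNNAA. The site type of AP-1 factors was searched as TGANTCA. The site type of ETS factors was searched as GAGGAAG. The site type of SP1 was searched as GGGCGG. Matches to different motifs did not overlap in the promoters shown.
S100a6: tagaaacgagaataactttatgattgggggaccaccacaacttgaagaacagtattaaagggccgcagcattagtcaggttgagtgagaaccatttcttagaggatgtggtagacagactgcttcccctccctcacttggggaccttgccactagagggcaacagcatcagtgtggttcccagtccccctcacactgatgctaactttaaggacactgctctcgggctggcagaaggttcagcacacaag
S100a4: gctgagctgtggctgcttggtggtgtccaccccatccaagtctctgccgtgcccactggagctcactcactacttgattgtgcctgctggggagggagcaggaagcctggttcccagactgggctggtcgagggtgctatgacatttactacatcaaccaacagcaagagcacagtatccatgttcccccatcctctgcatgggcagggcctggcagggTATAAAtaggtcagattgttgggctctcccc
S100a8: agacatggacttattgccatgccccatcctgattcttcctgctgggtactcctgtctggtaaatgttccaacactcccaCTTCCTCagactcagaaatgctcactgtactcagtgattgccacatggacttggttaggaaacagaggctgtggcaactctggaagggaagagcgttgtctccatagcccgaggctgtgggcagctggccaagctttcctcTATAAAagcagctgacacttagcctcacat
S100a9: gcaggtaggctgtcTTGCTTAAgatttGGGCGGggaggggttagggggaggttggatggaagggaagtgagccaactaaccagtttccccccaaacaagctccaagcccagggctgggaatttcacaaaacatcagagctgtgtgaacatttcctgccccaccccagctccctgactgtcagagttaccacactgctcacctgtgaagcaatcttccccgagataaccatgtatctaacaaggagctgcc

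TATAAA began 31 bases before the start of S100a4 and 30 bases before that of S100a8, and 12.4% of all 32851 promoters in the table held it. The S100a8 promoter also held GAGGAAG, on the opposite strand, and 10.6% of promoters held it on either strand. The S100a9 promoter held TTGCNNAA, as 9.56% did, and GGGCGG, as 32.7% did. The S100a6 window held none of the 5 motifs in these letters. The S100a11 promoter, not shown, held GGGCGG in 3 places and TGANTCA, found in 6.75% of promoters, in 2. The windows of S100a1 and S100a13 run in opposite directions and share 104 bases, with none of the 5 motifs in either. The median GC content of all promoters was 52.4%, beside 57.2% for S100a4, 53.6% for S100a9 and 50.8% for S100a8, with S100a6 the lowest of the 7 members. A match is a description of the letters and says nothing of binding.

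Of 9 other S100 genes on the array, 4 passed the filter and 0 were called in limma. At an unadjusted p under 0.05, 1 passed, beside 14.7% of all features, and 1 was called with the replicate block, beside 4.08%. Both counts refer to S100a10, the partner of annexin A2. It was at 2357, 3216 and 1875 in MLPG, against 499.0, 1276 and 999.8 in GP, with a log2 difference of 1.49 (SE 0.34). Its adjusted p was 0.121 in limma, or 0.0152 under the replicate block. Without GP replicate 1, its lowest array, the S100a10 difference was 1.10. Every MLPG array was above every GP array, and 15 of the 15440 features had a higher difference. The monocyte markers summed above moved the same way, and their part in the S100a10 and S100a4 differences was not tested. S100a14, S100a16 and S100z differed by -0.11, 0.11 and 0.12. S100a3, S100a5, S100a7a, S100b and S100g were below the filter, with means from 128.1 to 176.2 in either group.

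Receptors through which released S100 proteins are known to signal, counted with their cofactors and adaptor, were 8 on the array, of which 6 passed the filter. In limma 0 of them were called and 1 had an unadjusted p under 0.05, lower in MLPG, beside 14.7% of all features. Their median difference was 0.05. That 1 was Ager, which encodes RAGE, at 797.4, 668.4 and 563.1 in MLPG, against 1133, 826.9 and 855.7 in GP. The groups did not overlap, and the log2 difference was -0.47 (SE 0.16). Its adjusted p was 0.25 in limma, or 0.0401 under the replicate block. Its second probe differed by -0.30, and without GP replicate 1 the first differed by -0.33. Tlr4 differed by 0.08 (adjusted p = 0.879) on its brightest probe and by -0.18 on another. Its cofactor Ly96, which encodes MD-2, differed by 0.31 (0.387), Cd14 by 0.01 (0.988) and the adaptor Myd88 by -0.14 (0.52), all in limma.

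Intracellular partners were 10 in the list, of which 8 were matched to a probe. Of the 8, 0 were called in limma or with the block. An unadjusted p under 0.05 was found for 3, all lower in MLPG, beside 14.7% of all features. The median difference was -0.23. These were Anxa1, the partner of S100A11, with -0.47 (adjusted p = 0.283), Anxa11, a partner of S100A6, with -0.42 (0.256), and Iqgap1, a scaffold of the actin cortex, with -0.35 (0.202). All 3 kept probes of Anxa11 and all 5 of Iqgap1 had the same sign. Anxa1 was at 6980, 7591 and 7137 in MLPG and at 13646, 8591 and 8580 in GP, and GP replicate 1 was the highest array for all 3 genes. Without GP replicate 1 the differences were -0.25 for Anxa1, -0.26 for Anxa11 and -0.27 for Iqgap1. That array also stood apart in some macrophage markers, but not in all. C1qb was at 174.0, 130.9 and 108.9 in MLPG, against 1384, 192.2 and 206.4 in GP. Mrc1 was at 490.4, 378.8 and 432.9 in MLPG, against 1353, 311.9 and 418.9 in GP. C1qa and C1qc were also highest in GP replicate 1, and Vcam1 narrowly so (16293, against 14984 in MLPG replicate 1). Adgre1 went the other way, at 1332, 1196 and 980.7 in MLPG, against 939.9, 1200 and 1202 in GP. The 6 marrow macrophage markers summed to 10585 to 17329 in MLPG and 12361 to 21568 in GP, most of it from Vcam1. In limma 0 of the 6 markers passed even an unadjusted p of 0.05. Their part in these differences was not tested. Cacybp differed by 0.35 (adjusted p = 0.349), and Myh9, the myosin bound by S100A4, by -0.20 (0.443) on the brightest of 3 probes that ran from -0.69 to 0.10. Anxa2 differed by -0.14 (adjusted p = 0.535 in limma) on its brightest probe and by 0.48 on its other kept probe.

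Genes that raise, lower or buffer cytosolic calcium, the signal that S100 proteins read, were 10 on the array, of which 9 passed the filter. In limma 0 were called and 4 had an unadjusted p under 0.05, 2 higher and 2 lower in MLPG, beside 14.7% of all features. With the replicate block 1 was called, higher, beside 4.08% of all features. Their median difference was -0.10. Itpr2 and Itpr3 encode inositol trisphosphate receptors, which release calcium from the endoplasmic reticulum. Itpr2 was at 1265, 1457 and 1206 in MLPG, against 2670, 1754 and 1804 in GP (log2 difference -0.64, adjusted p = 0.164 in limma). Its other kept probe differed by -0.20, and without GP replicate 1 the brightest differed by -0.45. Itpr3 was at 370.1, 481.8 and 369.8 in MLPG, against 185.6, 354.8 and 284.1 in GP (log2 difference 0.61, limma adjusted p = 0.28, or 0.0483 under the replicate block), and without GP replicate 1 the Itpr3 difference was 0.35. Stim2, a sensor of calcium in the endoplasmic reticulum, differed by -0.32 (adjusted p = 0.245) and Atp2a2, its calcium pump, by 0.36 (0.329).

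**Figure D5:**
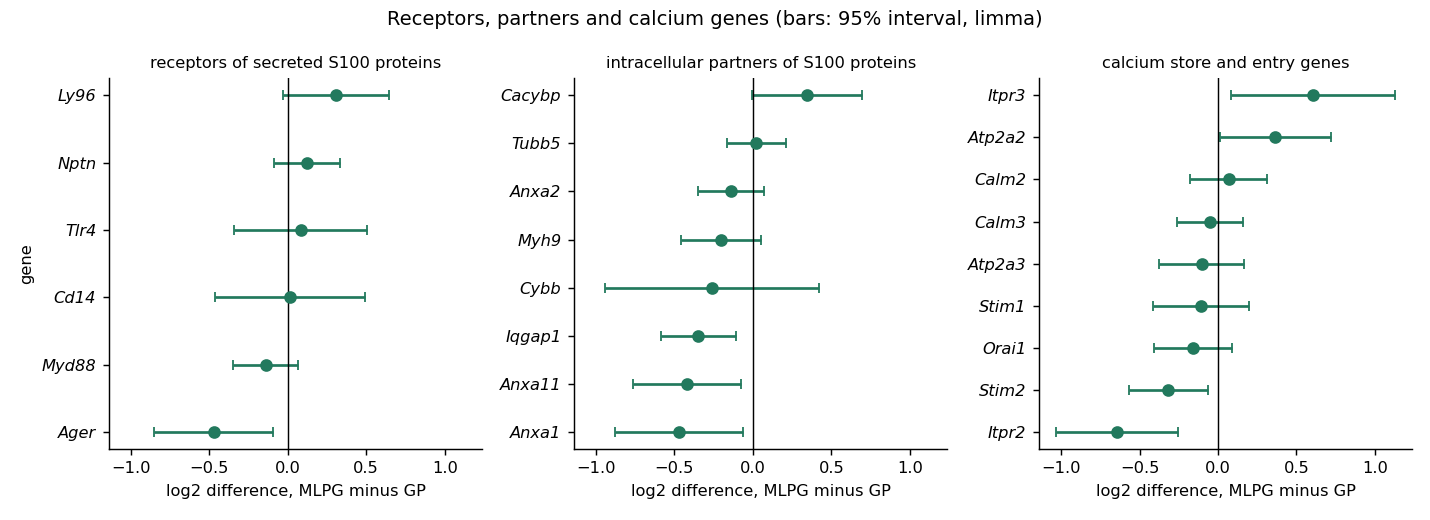
Log2 difference, MLPG minus GP (x axis), with 95% intervals from limma, 1 row per gene. Genes shown are the receptors with their cofactors and adaptor, the intracellular partners and the calcium genes, all above the filter. In limma 0 of these 23 genes were called at an adjusted p under 0.05; Ager, Anxa1, Anxa11, Iqgap1, Itpr2 and Stim2 lie below 0 and Itpr3 and Atp2a2 above it with intervals that do not reach 0.

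For each member, the named genes with the most similar profile were found by Pearson's r of log2 values over the 6 arrays, which share their groups, so r also reflects the difference between MLPG and GP. Closest to S100a6 were Carhsp1 (r = 0.992, log2 difference -0.70, adjusted p = 0.0325 in limma), Gcnt2 (0.991, -0.74, 0.0325) and Slc23a3 (0.991, -0.57, 0.0555). Closest to S100a9 were Tlr13 (r = 0.997), an endosomal sensor of bacterial RNA, Pglyrp1 (0.993), which encodes a bactericidal protein of neutrophil granules, and Slc15a3 (0.990), a lysosomal peptide transporter. Closest to S100a8 were Cdyl2 (r = 0.991), Paqr9 (0.987) and Shf (0.983). Closest to S100a4 were Olfm1 (0.991), Sun1 (0.980) and Smim11 (0.978). With 6 arrays and 11348 named genes, values of this size are found for each of the 7 members (0.975 or more for the 3 closest genes of each).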

How the data were processed

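Biotin-labelled total RNA of 6 samples was measured on Illumina bead arrays. The authors deposited normalized probe intensity values on a linear scale for 45281 probes, with GenomeStudio, per the submitters' processing notes (version and normalization: not given in the sources used here). Across the 6 columns the sorted deposited values differ by at most 0.142%, so the intensity values had been quantile normalized. A second deposited table heads 12 columns by numbers that match no sample's labels, so these were not used, and log2 of the deposited values was analysed instead.

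Symbols came from the platform's annotation: 34885 probes had 1 symbol, 18 had several and were not named, and 10378 had none. Entrez identifiers of 34807 probes matched RefSeq genes of GRCm38.p6, and 0 symbols changed. All 7 members, and all 7 promoters, were matched. Sequences are RefSeq's, build GRCm38.p6.

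A filter on dim probes asked for a mean log2 value over the median probe's, 7.48, and 22640 probes met it. All 7 members passed. The brightest probe stood for a gene, giving 15440 features, of which 11348 were named genes. Values of genes below this filter come from a fit of all probes. limma 3.58.1 in R 4.3.3 (lmFit, eBayes) was run on log2 values, MLPG minus GP, over 6 arrays without covariates, with Benjamini-Hochberg adjustment over all features and calls under 0.05. The code was tested on simulated data. The number of arrays limits the precision.

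Both groups carry replicate numbers 1 to 3. Deviations from group means correlated between same-numbered arrays at 0.38, 0.30 and 0.47, so a second fit took replicate number as a block. That pairing comes from the data, not from the labels. Arrays of different numbers were not correlated for comparison, so these values cannot settle whether the numbers pair the samples.

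The members and lists were chosen with earlier results of these data known. The rule for named genes took every member, any measured gene of the lists and the 3 genes closest to each member. In all, 15 alternatives were run.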

Additional observations from a re-analysis of the deposited data

How the results depend on the processing

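Over the 15 alternatives (replicate block, filters, probe rules, scaling, background, variance trend, array weights and each array left out), S100a6 kept its direction, and its call was kept in 11 and lost in the 4 given above. The number of members called was 1 in those 11 and ranged from 0 to 1 when single arrays were left out. The other 6 members were called in none. The sign of S100a1 turned with array weights, at 0.028, and lay between -0.240 and 0.042 with single arrays left out. The members' median difference moved by less than its spread between replicate numbers (SD 0.092) in the 14 alternatives that kept all 7, and ranged from -0.179 to -0.053 with single arrays left out; the filter at the 75th percentile removed S100a4 and gave no median over 7. Called features numbered 79, but 630 with the replicate block, 220 with array weights, 146 without a filter on dim probes and 2 to 348 with single arrays left out (2 without MLPG replicates 1 or 3, 3 without MLPG replicate 2, 25 without GP replicate 3 and 348 without GP replicate 2). The replicate block changed no call among the 7 members and added that of S100a10. That gene was also called without GP replicate 2 (log2 difference 1.78, adjusted p = 0.0421 in limma). It was not called with any other single array left out (adjusted p from 0.121 to 0.318 in limma), and its difference was 1.10 without GP replicate 1. The causes of these changes were not tested. Low intensity limits S100a4 and the compressed top of the scale limits S100a8, S100a9 and S100a11.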
